A study of Mus musculus with 19 samples.

Results

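The 9 genes described here carry out antigen presentation on major histocompatibility complex (MHC) class I in the mouse: the heavy chains H2-K1 and H2-D1, their light chain B2m, the inducible proteasome subunits Psmb8 and Psmb9, the peptide transporter genes Tap1 and Tap2, the loading factor Tapbp and the transactivator Nlrc5. They were chosen by name, and their rows were found by Ensembl identifier among the 55487 gene rows of each library. All 9 were in the files and all 9 passed the expression filter. RNA had been sequenced from the cortex of male P301S/E4 mice aged 41 weeks, a genotype that both groups share and that the labels do not spell out. The 10 lemborexant libraries came from mice given 30 mg/kg of this orexin receptor antagonist, a sleep drug, by daily gavage at zeitgeber hour 13, between 7.5 and 9.5 months of age. The 9 vehicle libraries came from mice given 0.5% methylcellulose on the same schedule. The labels do not state that libraries stand for separate mice, so the p-values measure the spread between libraries. The genes were compared by treatment, and were also described in libraries with Cst7 at or above 1 CPM and below it. CPM is a gene's count relative to the whole library's, so it does not correct for gene length. Cst7 encodes a cystatin that microglia switch on when they are activated.

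Class I molecules display short peptides from a cell's own proteins to CD8 T cells. Proteasomes cut the peptides, the Tap1 and Tap2 proteins pump them into the endoplasmic reticulum, and tapasin, the product of Tapbp, holds the empty heavy chain and its light chain until a peptide is bound. Interferons raise most of these genes, and newly made proteasomes then carry Psmb8 in place of Psmb5 and Psmb9 in place of Psmb6. In the healthy brain class I is low on most neurons and higher on endothelial cells and microglia.

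In the GRCm38 annotation 7 of the 9 genes lie on chromosome 17. Tapbp is at chr17:33915899-33929292, H2-K1 at chr17:33996017-34000347 and H2-D1 at chr17:35262730-35267499. Psmb9 at chr17:34181987-34187764, Tap1 at chr17:34187553-34197225, Psmb8 at chr17:34197721-34201454 and Tap2 at chr17:34203527-34216321 follow each other as neighbours. B2m is at chr2:122147686-122153083 and Nlrc5 at chr8:94434356-94527272. H2-K1 and Psmb9 are on the minus strand and the other genes on the plus strand. Tap1 and Psmb9 run in opposite directions and share 212 exonic bases, and since no strand setting of the deposited counts is recorded, reads from the shared bases cannot be assigned to either gene. Of all 50-base words in the annotated transcripts of H2-K1, 9.63% also occurred in other genes, most often in other class I heavy chains, and for H2-D1 the share was 12.8%. The share was 23.2% for Tapbp, mainly through the antisense gene Gm19412, and 0.0% for B2m. The levels of the heavy chains are therefore uncertain by the way such reads were divided.

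Promoter sequences are shown because these genes are known to be switched on together through short elements near their start sites. RefSeq's GRCm38.p6 promoter table held 7 of the 9 genes. Tap2 and Nlrc5 had no entry. The windows run from 250 bases before to 50 bases after the start site, and the 250 bases before the start are printed here, 5′ to 3′, for the light chain, both heavy chains and both inducible proteasome subunits. Capitals mark matches on either strand to 6 short motifs. These were the interferon-stimulated response element core (GAAA, 2 bases of any kind, GAAA), the gamma-activated sequence (TTC, 3 bases, GAA), the X2 site core TGACG, the Y box CCAAT, and a pair of kappaB forms (the first GGG, 2 bases, T, 1 base, CCC; the second GGG, 2 bases, TTTCC). The printed stretches are chr2:122147437-122147686 for B2m (plus strand), chr17:34000348-34000597 for H2-K1 (minus strand), chr17:35262844-35263093 for H2-D1 (plus strand), chr17:34197945-34198194 for Psmb8 (plus strand) and chr17:34187331-34187580 for Psmb9 (minus strand).
B2m: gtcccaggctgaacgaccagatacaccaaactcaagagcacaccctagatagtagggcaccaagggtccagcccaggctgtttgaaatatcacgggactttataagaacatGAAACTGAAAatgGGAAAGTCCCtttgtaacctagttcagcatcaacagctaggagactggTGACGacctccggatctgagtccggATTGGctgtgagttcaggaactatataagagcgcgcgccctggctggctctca
H2-K1: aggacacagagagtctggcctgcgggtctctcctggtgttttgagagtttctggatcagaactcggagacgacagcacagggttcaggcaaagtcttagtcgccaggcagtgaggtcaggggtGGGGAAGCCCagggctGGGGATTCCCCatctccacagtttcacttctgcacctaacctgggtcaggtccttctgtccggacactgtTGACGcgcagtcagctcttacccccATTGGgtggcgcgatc
H2-D1: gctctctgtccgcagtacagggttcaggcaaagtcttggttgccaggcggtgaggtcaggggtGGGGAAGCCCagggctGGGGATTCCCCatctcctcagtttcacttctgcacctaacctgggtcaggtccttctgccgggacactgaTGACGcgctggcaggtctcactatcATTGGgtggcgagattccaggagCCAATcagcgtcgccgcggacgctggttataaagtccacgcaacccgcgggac
Psmb8: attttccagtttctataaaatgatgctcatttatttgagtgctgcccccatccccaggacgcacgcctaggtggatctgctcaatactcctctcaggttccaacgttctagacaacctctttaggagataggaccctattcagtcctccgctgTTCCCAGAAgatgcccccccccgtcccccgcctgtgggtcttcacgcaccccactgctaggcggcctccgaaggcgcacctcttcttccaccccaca
Psmb9: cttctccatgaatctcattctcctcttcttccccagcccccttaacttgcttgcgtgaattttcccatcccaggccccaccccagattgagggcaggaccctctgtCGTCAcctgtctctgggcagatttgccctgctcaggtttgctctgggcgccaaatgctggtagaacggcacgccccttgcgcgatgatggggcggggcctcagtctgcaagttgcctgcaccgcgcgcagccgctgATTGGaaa

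The X2 site core and the Y box belong to the compound element on which Nlrc5 acts with the RFX factors, CREB-family proteins and NF-Y. Within the 300-base windows the X2 core occurred in 5 of the 7 genes and in 21.0% of all 27025 promoters in the table, and the Y box in 6 of 7 and in 37.9% of all promoters. In H2-K1, H2-D1 and B2m an X2 core was followed by a reverse-strand Y box (ATTGG), with 25 bases between their first letters. That spacing was found in 26 promoters of the table, 0.0962% of them, and it was searched for after the 3 sequences had been seen. The first kappaB form occurred only in H2-K1 and H2-D1, against 4.83% of all promoters. Each held overlapping matches at a palindrome and a separate match, GGGGAAGCCC, farther from the start site. The H2-K1 and H2-D1 windows share long stretches of the same letters, so the matches of these genes, here and above, are not independent. B2m held the response element core, found in 3.49% of promoters, next to the second kappaB form, found in 1.62%. Psmb8 held a gamma-activated sequence, found in 8.47%. The windows of Psmb9 and Tap1 overlap by 275 bases, with start sites 226 bases apart, so the Psmb9 sequence above is also most of the Tap1 window. The X2 core and Y box found in Tap1 and in Psmb9 are the same sites read on opposite strands, and each was counted for both genes in the shares above. Matches after the start site, 1 each in H2-K1 and B2m, are not printed. A match describes letters in a window and is not a measured binding site.

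The libraries held 20185043 to 31795566 estimated reads each. All 10 cortical neuron markers passed the expression filter. In 3 pairs of lemborexant libraries (1 and 10, 3 and 8, 4 and 9) both libraries were nearly alike: the chi-square per degree of freedom between their counts was 3.08 to 3.66, against 12.2 to 274 in the remaining 168 comparisons. Whether these pairs are repeat libraries of the same RNA cannot be told from the labels. If they are, the lemborexant group holds 7 units, and the SDs and tests over 10 libraries count repeats as separate samples. All were kept as labelled, and values with each pair summed, which leaves 16 units, are given beside the treatment results. In Cst7, 4 libraries stood apart. Cst7 was at 16.4 CPM or more in 15 libraries, against 0.115 CPM in lemborexant 1, 0.253 in lemborexant 10, 0 in vehicle 1 and 0.188 in vehicle 4. All 19 libraries have the same genotype label, but whether the mice of these 4 libraries carry the tau transgene was not checked here, so their genotype rests on the label alone in both the treatment groups and the Cst7 groups. Library vehicle 7 had the most of the liver transcript Alb, at 331 CPM.

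Per unit of transcript length the 9 genes covered a wide range. In TPM, which scales counts by gene length as well as by library, the median over the 19 libraries was 1150.4 for B2m, 519 for H2-D1, 178 for H2-K1, 54.9 for Tapbp, 52.8 for Psmb8, 14.9 for Tap2, 13.9 for Psmb9, 6.51 for Tap1 and 1.80 for Nlrc5. Each gene was above the next in 19 of 19 libraries, with 2 exceptions. Tapbp was above Psmb8 in 11 of 19 and Tap2 above Psmb9 in 11 of 19, so those neighbours are not ordered beyond the spread between libraries. The light chain thus had more TPM than both heavy chains together, with a ratio of B2m to the sum of H2-K1 and H2-D1 of 1.64 ± 0.218 (SD, n = 10) in lemborexant libraries and 1.78 ± 0.300 (SD, n = 9) in vehicle libraries.

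Treatment was compared first. No change in any of the 9 genes was detected between lemborexant and vehicle libraries. With SEs of up to 0.51 on the log2 scale, changes of that size, and changes well above it, could have been missed. With edgeR's quasi-likelihood test and Benjamini-Hochberg adjustment over 19105 genes, 0 of 9 had an adjusted p under 0.05, where 2.61% of all genes did (182 higher and 316 lower with lemborexant), and 0 of 9 had an unadjusted p under 0.05, where 25.7% of all genes did. The estimates were small beside the spread between libraries, with 4 of 9 above 0 and a median log2 change of -0.06, against 0.03 over all tested genes. In bulk tissue, more cells of a type and more RNA per cell cannot be told apart, here and in all results that follow.

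The heavy chains and light chain were the most abundant. H2-K1 read 23.8 CPM in the lowest lemborexant library, 113 at the median and 288 in the highest, against 25.2, 132 and 262 CPM in vehicle libraries. H2-D1 read 91.6, 611 and 1233 CPM in lemborexant libraries, against 96.5, 649 and 1263 CPM in vehicle libraries. B2m read 81.0, 383 and 1249.5 CPM in lemborexant libraries, against 83.8, 467 and 1004 CPM in vehicle libraries. For all 3 genes the groups overlapped over nearly their whole range. H2-K1 averaged 129.7 ± 85.3 CPM in lemborexant libraries and 137 ± 80.3 CPM in vehicle libraries (SD, n = 10 and 9 here and below), its log2 change being -0.08 (SE 0.45, edgeR adjusted p = 0.931). H2-D1 averaged 611 ± 371 CPM in lemborexant libraries and 694 ± 418 CPM in vehicle libraries, a log2 change of -0.18 (SE 0.49, adjusted p = 0.837). B2m averaged 463 ± 352 CPM in lemborexant libraries and 525 ± 315 CPM in vehicle libraries, a log2 change of -0.18 (SE 0.48, adjusted p = 0.837).

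The inducible proteasome subunits had the same shape. Psmb8 read 5.20 CPM in the lowest lemborexant library, 28.1 at the median and 103 in the highest, against 5.84, 38.3 and 89.4 CPM in vehicle libraries. Psmb9 read 1.87, 11.1 and 33.8 CPM in lemborexant libraries, against 2.35, 12.2 and 27.8 CPM in vehicle libraries. Both medians were lower with lemborexant, inside groups that overlapped. Psmb8 averaged 36.2 ± 28.9 CPM in lemborexant libraries and 43.5 ± 28.7 CPM in vehicle libraries, its log2 change being -0.27 (SE 0.50, edgeR adjusted p = 0.761). Psmb9 averaged 13.1 ± 9.51 CPM in lemborexant libraries and 13.6 ± 8.26 CPM in vehicle libraries, a log2 change of -0.06 (SE 0.46, adjusted p = 0.951).

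The transport and loading genes varied least. Tap1, a transporter subunit, read 2.89 CPM in the lowest lemborexant library, 12.5 at the median and 21.1 in the highest, against 3.48, 11.9 and 24.02 CPM in vehicle libraries. Tap2, its partner, read 14.7, 32.8 and 39.5 CPM in lemborexant libraries, against 12.6, 33.1 and 40.2 CPM in vehicle libraries. Tapbp read 43.0, 89.6 and 119 CPM in lemborexant libraries, against 39.2, 85.2 and 128 CPM in vehicle libraries. Group medians lay within a few percent of each other for these 3 genes. The log2 change was 0.05 for Tap1 (SE 0.36, edgeR adjusted p = 0.945), 0.05 for Tap2 (SE 0.22, adjusted p = 0.915) and 0.07 for Tapbp (SE 0.22, adjusted p = 0.873). Nlrc5, the transactivator, read 0.289, 3.49 and 9.63 CPM in lemborexant libraries, against 0.392, 3.41 and 5.32 CPM in vehicle libraries. Its medians nearly coincided, while library lemborexant 2 alone reached 9.63 CPM. The log2 change of Nlrc5 was 0.33 (SE 0.51, adjusted p = 0.706), the largest estimate of the 9.

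**Figure D1:**
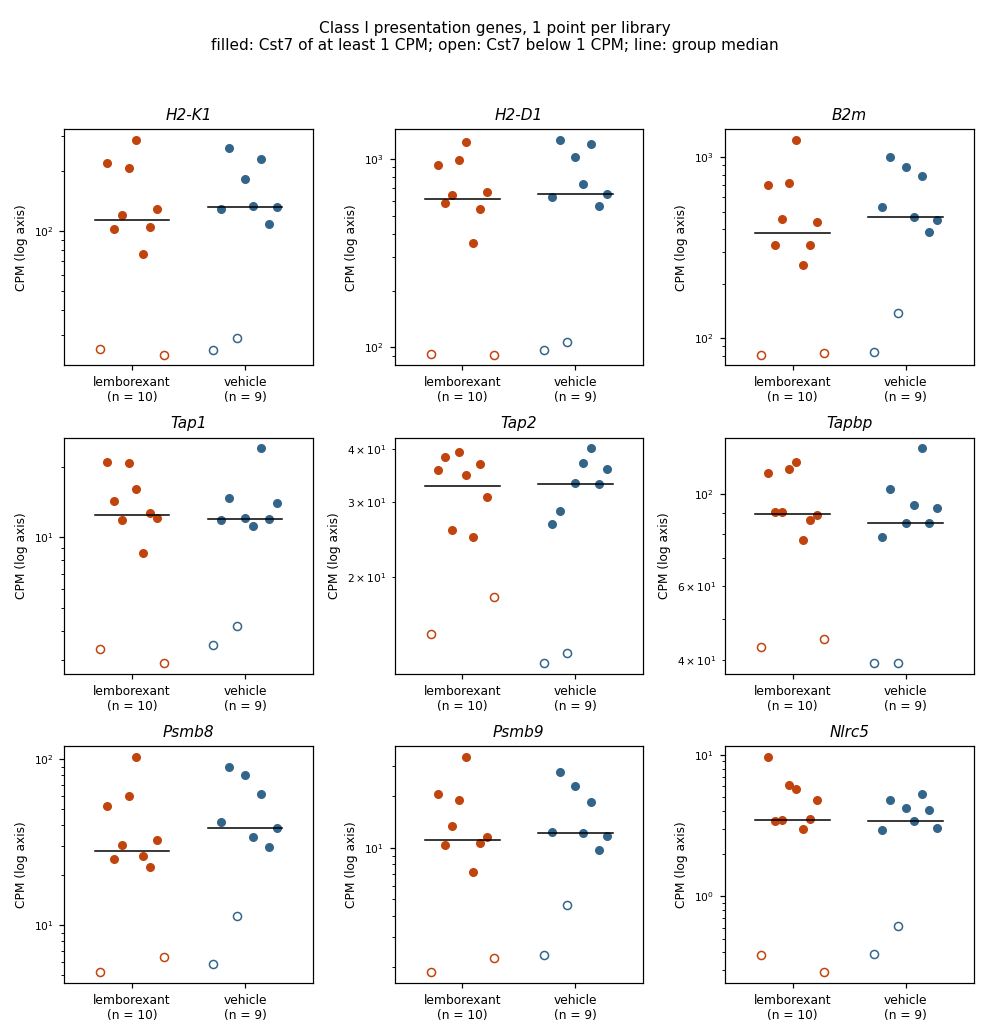
CPM of each of the 9 genes on a log axis, 1 point per library, with lemborexant on the left (n = 10) and vehicle on the right (n = 9); filled points have Cst7 of at least 1 CPM, open points have Cst7 below 1 CPM and lines are group medians. In every panel the filled points of both groups overlap, and the 4 open points, drawn from both groups, lie below all 15 filled points.

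Summing the nearly alike pairs moved every estimate upward. The log2 change became 0.12 for H2-K1, -0.02 for H2-D1, 0.03 for B2m, -0.03 for Psmb8, 0.14 for Psmb9, 0.18 for Tap1, 0.10 for Tap2, 0.15 for Tapbp and 0.52 for Nlrc5. In that fit 0 of 9 were past the threshold, as were 0.0% of 19224 genes. Leaving out the 4 libraries with Cst7 below 1 CPM gave smaller errors; both groups held 2 of them. The SE was then 0.11 for Tap2 and Tapbp and 0.33 for Psmb8, the widest, with log2 changes between -0.30 (Psmb8) and 0.31 (Nlrc5), and again 0 of 9 genes were past the threshold, where 2.71% of all genes were. The library numbers in the labels fall into ranges that both hold both groups. Within numbers 1064 to 1602 (7 and 7 libraries) the log2 changes ran from -0.11 for Psmb8 to 0.55 for Nlrc5, and 0.0422% of all genes were called. Within numbers 859 to 933 (3 and 2 libraries) they ran from -0.72 for Psmb8 to -0.26 for Tap2, and 0.0% were called. Lemborexant libraries 8, 9 and 10 of this range are the nearly alike partners of 3, 4 and 1 in the other range. If they are repeats, the ranges share RNA, also where the range is a covariate. In each of these fits 0 of 9 members were past the threshold. The same count of 0 was met with RLE factors (2.69% of all genes called), no expression filter (0.673%), DESeq2 (9.48%), voom with quality weights (11.8%), log2(TPM + 1) (0.783%), log2(TPM + 0.1) (0.157%), the number range as a covariate (1.54%), and without lemborexant 7 and vehicle 7 (1.61%). No member's values separated the treatment groups, as those of 0.194% of all genes did.

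**Figure D2:**
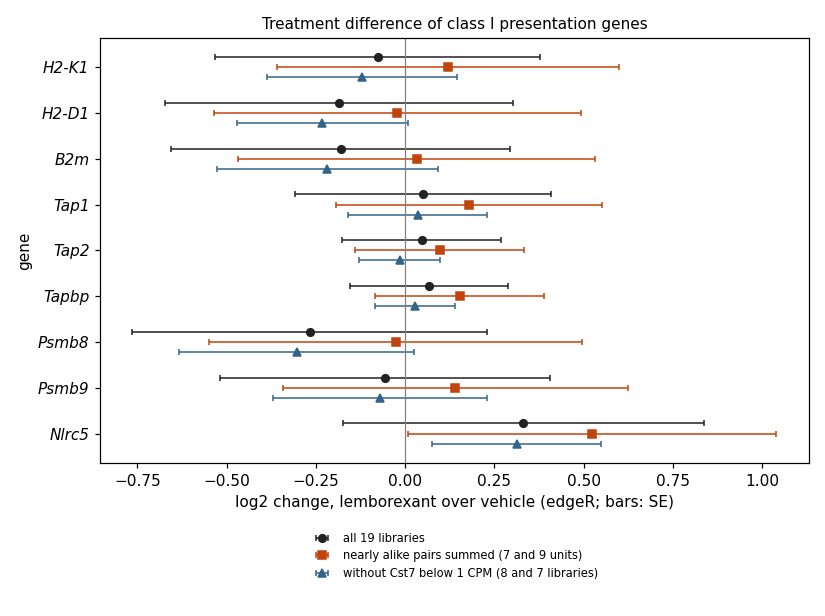
Log2 change of each gene, lemborexant over vehicle, with its SE from edgeR's quasi-likelihood fit, for all 19 libraries, for nearly alike pairs summed, and without the 4 libraries of Cst7 below 1 CPM. All estimates lie between -0.30 and 0.52, and the bars are shortest where the 4 libraries are left out.

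No gene of the next 3 lists of the pathway was past the threshold with treatment, where 2.61% of all tested genes were. Of 16 tested other class I heavy chains and class I-like genes, 0 rose and 0 fell. H2-Q10, a class I molecule secreted by liver, had an estimate of -3.79 in log2 units (SE 1.06, edgeR adjusted p = 0.0563), and its highest value, 53.4 CPM, was in library vehicle 7, the library with the most Alb. The next smallest p-values of that list were those of H2-Q1 (log2 change 1.76, adjusted p = 0.131) and Mr1 (0.35, adjusted p = 0.153). Of 13 genes of peptide loading and trimming 0 rose and 0 fell. The smallest p-values there belonged to the folding sensor Uggt1 (log2 change 0.18, adjusted p = 0.113), Sec61b (-0.48, adjusted p = 0.124) and the chaperone Calr (-0.12, adjusted p = 0.204). Of 16 regulators of class I transcription 0 rose and 0 fell. The smallest p-values there belonged to the RFX subunits Rfxap (log2 change -0.44, adjusted p = 0.132) and Rfxank (0.15, adjusted p = 0.151), and to Nfkb1 (0.33, adjusted p = 0.188).

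Upstream of the pathway, 1 of 9 tested interferon and receptor genes was past the threshold, where 2.61% of all tested genes were. Ifngr2, a subunit of the interferon gamma receptor, read 39.98, 63.7 and 70.0 CPM in the lowest, median and highest lemborexant library, against 65.1, 80.2 and 114 CPM in vehicle libraries. Only the top of the lemborexant values reached the bottom of the vehicle values. It fell by 0.53 on the log2 scale with lemborexant (SE 0.12, edgeR adjusted p = 0.0298), and no gene of this list was past the threshold with nearly alike pairs summed. Its partner Ifngr1 had a log2 change of 0.19 (SE 0.24, adjusted p = 0.639). Of 30 interferon-stimulated genes 0 rose and 0 fell, and the smallest p-values were those of Isg15 (log2 change -0.59, adjusted p = 0.575), Bst2 (-0.37, adjusted p = 0.696) and Irf7 (-0.38, adjusted p = 0.723). Of 10 genes of class II presentation, the pathway that shows peptides to CD4 T cells, 0 rose and 0 fell, with a median log2 change of -0.65. The smallest p-values there were those of H2-DMa (log2 change -0.44, adjusted p = 0.174), H2-Oa (-0.92, adjusted p = 0.259) and H2-Ob (-0.64, adjusted p = 0.420). Of 7 tested genes of receptors that bind class I, or of related receptors not all known to bind it, 0 rose and 0 fell. The smallest p-values there were those of Pirb (log2 change 0.53, adjusted p = 0.340), Lilra5 (0.44, adjusted p = 0.524) and the CD8 chain gene Cd8a (-0.62, adjusted p = 0.563).

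The libraries were then described by Cst7. All 9 genes were higher in every one of the 15 libraries with Cst7 of at least 1 CPM (8 lemborexant and 7 vehicle) than in every one of the 4 with Cst7 below 1 CPM (2 lemborexant, which are a nearly alike pair, and 2 vehicle). Among all 19105 tested genes, 6.33% were higher without overlap and 2.27% lower without overlap. The ratio of medians was 2.20 for Tapbp, the smallest of the 9, and 10.6 for Nlrc5, the largest, with a median of 5.31 over the 9, against 0.991 over all tested genes. The groups of libraries were made from a measured transcript, so these values are descriptions with no test. The gap in Cst7 is wide: the lowest library above 1 CPM stood at 16.4 CPM and the highest below it at 0.253 CPM, and thresholds of 0.5 and 2 CPM gave the same libraries.

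Among the most abundant genes, H2-D1 differed more than H2-K1 or B2m. H2-K1 ran from 76.0 to 288 CPM in the 15 libraries with Cst7 of at least 1 CPM, against 25.5 and 23.8 CPM in lemborexant libraries 1 and 10, and 25.2 and 28.7 CPM in vehicle libraries 1 and 4. The ratio of medians was 5.23. H2-D1 ran from 356 to 1263 CPM in the 15 libraries, against 91.9 and 91.6 CPM in lemborexant libraries 1 and 10, and 96.5 and 107 CPM in vehicle libraries 1 and 4, a ratio of medians of 7.05. B2m ran from 253 to 1249.5 CPM in the 15 libraries, against 81.0 and 83.1 CPM in lemborexant libraries 1 and 10, and 83.8 and 138 CPM in vehicle libraries 1 and 4, a ratio of medians of 5.601. Within the 4 libraries the heavy chains lay close together, and vehicle 4 had the highest CPM of all 3 genes. In TPM its H2-D1 was instead the lowest of the 4, at 62.5, against 78.5 to 80.7.

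The proteasome subunits behaved alike. Psmb8 ran from 22.5 to 103 CPM in the 15 libraries, against 5.20 and 6.44 CPM in lemborexant libraries 1 and 10, and 5.84 and 11.3 CPM in vehicle libraries 1 and 4, a ratio of medians of 6.24. Psmb9 ran from 7.23 to 33.8 CPM in the 15 libraries, against 1.87 and 2.28 CPM in lemborexant libraries 1 and 10, and 2.35 and 4.66 CPM in vehicle libraries 1 and 4, a ratio of medians of 5.31. Both were highest in vehicle 4 among the 4 libraries. Psmb10, the inducible subunit not among the 9 genes, and the proteasome activator subunits Psme1 and Psme2 overlapped between the libraries, with ratios of medians of 1.13, 1.599 and 1.53. The constitutive subunits Psmb5, Psmb6 and Psmb7 overlapped too, with ratios of 1.03, 1.08 and 0.885.

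The transport and loading genes had smaller ratios. Tap1 ran from 8.60 to 24.02 CPM in the 15 libraries, against 3.32 and 2.89 CPM in lemborexant libraries 1 and 10, and 3.48 and 4.19 CPM in vehicle libraries 1 and 4, a ratio of medians of 3.75. Tap2 ran from 24.9 to 40.2 CPM in the 15 libraries, against 14.7 and 18.0 CPM in lemborexant libraries 1 and 10, and 12.6 and 13.3 CPM in vehicle libraries 1 and 4, a ratio of medians of 2.48. Tapbp ran from 77.5 to 128 CPM in the 15 libraries, against 43.0 and 44.9 CPM in lemborexant libraries 1 and 10, and 39.2 and 39.3 CPM in vehicle libraries 1 and 4. Tap2 had the narrowest gap of the 9 genes, its lowest value in the 15 libraries being 1.38 times the highest value in the other 4. Nlrc5 ran from 2.95 to 9.63 CPM in the 15 libraries, against 0.382 and 0.289 CPM in lemborexant libraries 1 and 10, and 0.392 and 0.611 CPM in vehicle libraries 1 and 4. Its gap was the widest, the lowest of the 15 being 4.83 times the highest of the 4.

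Around the 9 genes, the same division was uneven along the pathway. Over all tested genes 6.33% were higher without overlap. Of 16 tested other class I genes 9 were higher without overlap, among them the nonclassical heavy chains H2-Q6 and H2-Q7, with ratios of medians of 9.60 and 10.5, and H2-T23, with 2.70. Of 13 genes of peptide loading and trimming only the oxidoreductase Pdia3, the tapasin relative Tapbpl and the trimming peptidase Erap1 did not overlap, with ratios of 1.29, 1.42 and 1.80, and the list's median ratio was 1.08. Of 16 regulators 5 were higher without overlap: Irf1, Irf8, Irf9, Nfkb1 and Rela, with ratios of 1.88, 6.33, 6.01, 1.39 and 1.46. The RFX and NF-Y subunits, with which Nlrc5 works, all overlapped, with ratios from 0.968 for Nfyc to 1.26 for Nfya. Of 30 interferon-stimulated genes 29 did not overlap, with a median ratio of 9.50, and of 10 class II genes 9 did not, with a median ratio of 7.56. The interferon genes Ifng and Ifnb1 were listed at 0 in all 4 libraries with Cst7 below 1 CPM and reached at most 0.337 and 0.250 CPM in the 15 others. Of 9 tested interferon and receptor genes 3 were higher without overlap, among them the receptor subunit Ifngr1, with a ratio of 1.91. The ratios of that list ran from 0.887 to 3.59, with a median of 1.22.

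**Figure D3:**
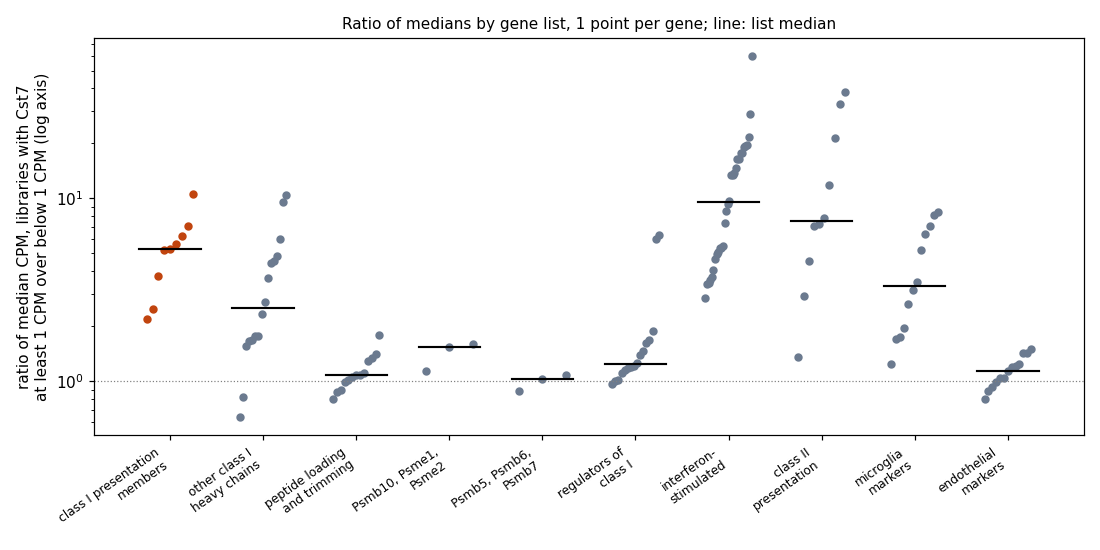
Ratio of the median CPM in the 15 libraries with Cst7 of at least 1 CPM over that in the 4 libraries below 1 CPM, on a log axis, with 1 point per tested gene grouped by gene list and a line at each list's median. The median of the 9 members, 5.31, lies between those of the interferon-stimulated genes at 9.50 and the microglia markers at 3.32. Single members run from 2.20 to 10.6. The medians of the constitutive proteasome subunits at 1.03 and the endothelial markers at 1.14 lie near 1.

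Markers of several cell types moved with the same division, where 6.33% of all tested genes were higher without overlap. Of 12 microglia markers 8 were higher without overlap, and their summed level was 1232 to 4395 CPM in the 15 libraries, against 483 to 811 CPM in the 4. None of them was at 0 in the 4 libraries. Of 14 activated microglia markers 13 did not overlap, Cst7 itself being one, and their sum was 579 to 2819 CPM in the 15 libraries, against 177 to 240.0 CPM in the 4. Of 8 reactive astrocyte markers 5 did not overlap, with a sum of 3363 to 9867 CPM in the 15 libraries, against 571 to 694 CPM in the 4. Of 12 tested T cell markers 6 did not overlap, with a sum over the list of 12.5 to 41.5 CPM in the 15 libraries, against 5.35 to 9.86 CPM in the 4, where Cd8b1 was at most 0.0362 CPM. The summed cortical neuron markers were at 1862 to 4787 CPM in the 15 libraries, against 5556 to 6257 CPM in the 4. Of 13 endothelial markers 0 were free of overlap, with a sum of 368 to 674 CPM in the 15 libraries, against 319.6 to 469.9 CPM in the 4. The part of these cell types in the levels of the 9 genes was not tested.

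Within the 15 libraries the 9 genes did not vary together as one block. After averaging the nearly alike pairs, 13 units remained, and each gene's log2 CPM was centred on its mean over them. The SD over units was 0.70 for Psmb8, 0.67 for B2m, 0.65 for Psmb9, 0.58 for H2-K1 and 0.55 for H2-D1, against 0.49 for Nlrc5, 0.42 for Tap1, 0.23 for Tapbp and 0.22 for Tap2. In CPM the heavy chains, light chain and proteasome subunits were highest in lemborexant 6 and vehicle 3. In TPM lemborexant 6 stayed highest for all of these but H2-D1, which was highest in vehicle 7. Vehicle 3 was then below lemborexant 2 and vehicle 7 for H2-K1, H2-D1 and B2m, though above both for Psmb8. B2m was 1.13 above its mean in lemborexant 6 and 0.81 in vehicle 3 on the log2 scale, and Psmb9 was 1.14 and 0.86 above. Tap1 stood only 0.18 and 0.06 above its mean in the same libraries and peaked in vehicle 7 at 0.76. Nlrc5 peaked in lemborexant 2, at 1.14, where B2m was at 0.30. All 9 genes were below their means in lemborexant 7, from -1.18 for B2m to -0.31 for Tapbp.

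The likeness of a pair of genes was measured as the root-mean-square (RMS) difference of their centred log2 CPM over these 13 units, where 0 would be the same profile. The 6 closest pairs were H2-K1 with H2-D1 at 0.12, B2m with Psmb9 at 0.12, B2m with Psmb8 at 0.15, H2-K1 with Psmb9 at 0.17, H2-K1 with B2m at 0.17 and Tap2 with Tapbp at 0.18. The farthest was Tap2 with Psmb8, at 0.66. Psmb9 and Tap1, whose start sites are 226 bases apart, differed by 0.50, more than Psmb9 and B2m, which lie on different chromosomes. Tap1 and Tap2, whose products form 1 transporter, differed by 0.30. Profiles were not scaled, so these distances follow how much each gene varied as well as its pattern. Tap2 and Tapbp, with SDs of 0.22 and 0.23, varied least. Units share normalization and the same cell mixture across genes, so these distances are descriptions.

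**Figure D4:**
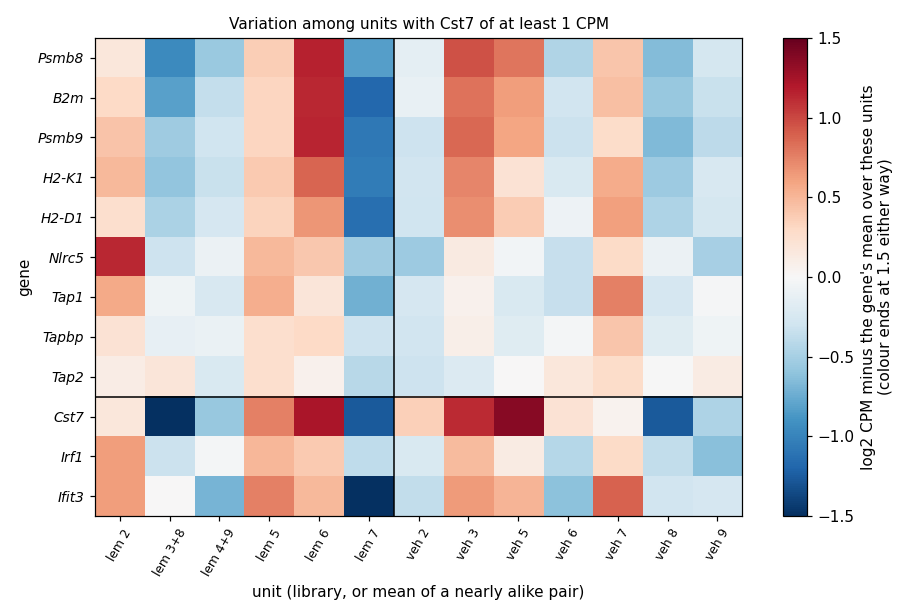
Heat map of log2 CPM minus each gene's mean over the 13 units with Cst7 of at least 1 CPM, 6 lemborexant units on the left and 7 vehicle units on the right, with the 9 genes above the line and Cst7, Irf1 and Ifit3 below it. The upper 5 rows are darkest red in lem 6 and veh 3, the Tap1 row is darkest red in veh 7 and the Nlrc5 row in lem 2, and lem 7 is blue in all 9 rows.

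The RNA of inducible and constitutive proteasome subunits was compared as a ratio of TPM within each library. Such RNA ratios in bulk tissue do not measure which subunits the proteasomes themselves carry. The ratio of Psmb8 to Psmb5 was 0.246 ± 0.171 in lemborexant libraries and 0.211 ± 0.114 in vehicle libraries (SD, n = 10 and 9). The mean log2 ratios differed by 0.15, with p = 0.793 in an exact two-sided permutation test over 92378 splits and 0.949 after Benjamini-Hochberg adjustment over the 2 ratios tested. The ratio of Psmb9 to Psmb6 was 0.0273 ± 0.0160 in lemborexant libraries and 0.0248 ± 0.0119 in vehicle libraries, a log2 difference of 0.03 (exact permutation p = 0.949, adjusted p = 0.949). With nearly alike pairs averaged the log2 differences were 0.44 and 0.24 (exact permutation p = 0.483 and 0.671 over 11440 splits). Beneath the first ratio, Psmb5 itself had an estimate of -0.51 in log2 units with lemborexant (SE 0.14, edgeR adjusted p = 0.0557).

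By Cst7 both proteasome ratios separated without overlap. Psmb8 to Psmb5 was 0.155 to 0.578 in the 15 libraries with Cst7 of at least 1 CPM, against 0.0350 and 0.0415 in lemborexant libraries 1 and 10, and 0.0351 and 0.0369 in vehicle libraries 1 and 4. Psmb9 to Psmb6 was 0.0158 to 0.0527 in the 15 libraries, against 0.00466 to 0.00711 in the 4. Tap1 to Tap2 was 0.293 to 0.581 in the 15 libraries, against 0.153 to 0.293 in the 4, so the groups of libraries touch, at vehicle 6 and vehicle 4. The ratios of H2-D1 to H2-K1, of Psmb8 to Psmb9 and of B2m to the summed heavy chains overlapped. Even in the library with the most Psmb8, lemborexant 6, the constitutive Psmb5 had more TPM than Psmb8, at a ratio of 0.578.

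**Figure D5:**
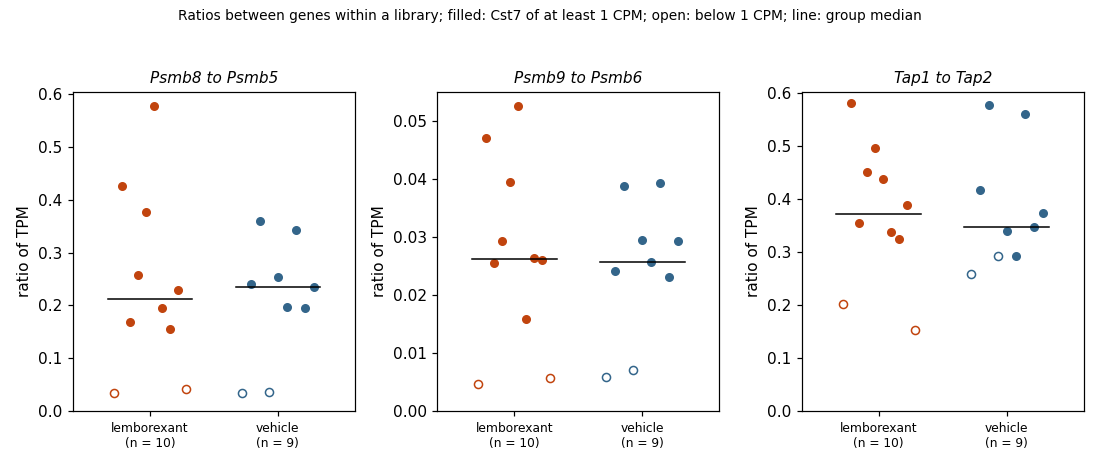
Ratios of TPM within each library for Psmb8 to Psmb5, Psmb9 to Psmb6 and Tap1 to Tap2, 1 point per library, lemborexant on the left (n = 10) and vehicle on the right (n = 9); filled points have Cst7 of at least 1 CPM, open points below 1 CPM, and lines are group medians. The open points lie at the bottom of each panel in both groups, apart from the filled points for the proteasome ratios and touching them for Tap1 to Tap2.

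Across all 19 libraries the profile of the 9 genes was summarised as the median of their centred log2 CPM over the 16 units. H2-K1 was nearest to it, with an RMS difference of 0.15, and Tap2 farthest, at 0.66. Here too profiles were not scaled, so the distance follows how much a gene varied as well as its pattern. Among 16509 other genes with a mean of at least 1 CPM, the 6 with the smallest RMS difference were the lysosomal protease Ctsz at 0.23, the interferon signalling factor Irf9 at 0.24, the tetraspanin Cd9 at 0.25, the interferon-stimulated gene Xaf1 at 0.25, the galectin Lgals9 at 0.25 and the small heat shock protein Hspb6 at 0.25. The median over all ranked genes was 1.12. Ctsz ran from 233 to 834 CPM in the 15 libraries with Cst7 of at least 1 CPM, against 67.5 to 94.2 CPM in the 4 below. Irf9 ran from 21.6 to 76.8 CPM in the 15 libraries, against 6.80 to 9.17 CPM in the 4. Cd9 ran from 186 to 718 CPM in the 15 libraries, against 62.1 to 71.0 CPM in the 4. None of the 6 was past the threshold between lemborexant and vehicle, with edgeR adjusted p from 0.765 for Irf9 to 0.986 for Cd9.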

How the data were processed

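Cortical RNA of the lemborexant and vehicle mice was sequenced as 1 library per sample, with groups taken from the treatment labels and replicates numbered in accession order. Per the submitters' processing notes, bcl2fastq and DRAGEN 3.9.3-8 were used, with GRCm38 as the genome build. Which annotation release, strand option and filters were used is not recorded in the labels. Each deposited table gives 1 row per gene with an estimated count and a TPM, per the file headers. An estimated count need not be whole where the authors' program split a read among genes, and all were rounded here. TPM values are relative to each library's total and to gene length, and were used where genes are compared with each other.

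Symbols came from GENCODE's GRCm38 annotation, for 55141 of 55487 identifiers. Treatment was tested in R 4.3.3 by the quasi-likelihood method of edgeR 4.0.16 with TMM factors, robust dispersion and edgeR's expression filter, two-sided, adjusted over all genes tested. CPM levels use TMM factors and log2 CPM a prior count of 2. The SE is the size of the log2 change divided by the square root of F. Alternatives used DESeq2 1.42.0, limma 3.58.1 on log2(TPM + 1) and log2(TPM + 0.1), voom with quality weights, other factors, no filter, and fewer or summed libraries. The edgeR step was tested on simulated data.

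The members and lists were chosen with earlier results of these data known. Named are all 9 members, the 3 smallest p-values and any called gene of each list described for treatment, genes, or examples, free of overlap in lists described by Cst7, and the 6 genes nearest to the members' median profile. Values of genes named beside these were added after they were seen. A gene of the list of class I regulators is not reported here.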

Additional observations from a re-analysis of the deposited data

Results flagged for a closer look

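In 30 sets of values (the 9 genes and 6 ratios, in lemborexant and in vehicle libraries), 1 library lay far from the rest of its set by Dixon's gap test, where chance alone gives about 1 in 20 sets. The ratio of B2m to the sum of H2-K1 and H2-D1, in TPM, was 2.46 in vehicle 4, while the other vehicle libraries reached at most 1.96. Vehicle 4 is 1 of the 4 libraries with Cst7 below 1 CPM. Its B2m, at 242 TPM, was above the 209 to 220.3 TPM of the other 3, and its H2-D1, at 62.5 TPM, was below their 78.5 to 80.7 TPM.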

How the results depend on the processing

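No member was past the threshold under any alternative run, the lowest adjusted p being 0.356, and 243 of 288 member values kept the sign of the main value. The count of members separated by Cst7 was 9 at each threshold and in plain CPM. The count of all genes past adjusted p 0.05, 498 in the main fit, was 254 without the expression filter, 1811 with DESeq2, 2251 with voom, 130 and 26 on log2(TPM + 1) and log2(TPM + 0.1), 0 with nearly alike pairs summed (4102 at an unadjusted p under 0.05), 294 with number range as covariate, 8 within numbers 1064 to 1602, 0 within 859 to 933 (910 unadjusted), 0 without low-Cst7 libraries and with pairs summed (3928 unadjusted), 307 without lemborexant 7 and vehicle 7, and 2137 at an adjusted p of 0.1. The cause of these differences was not tested. Leaving out each library in turn gave 31 (without lemborexant 9) to 1274 (without vehicle 8).

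The signs that turned were these. On log2(TPM + 1) and log2(TPM + 0.1), where the median of all genes was 0.18 and 0.20, H2-K1 was 0.097 in both, H2-D1 0.065 and 0.066, and Psmb9 0.060 and 0.049. With pairs summed H2-K1 was 0.12, Psmb9 0.14 and B2m 0.033. Without low-Cst7 libraries Tap2 was -0.016, and with pairs summed as well Tap2 was -0.0082, H2-K1 0.0049 and Psmb9 0.054. Within 1064 to 1602 H2-K1 was 0.067 and Psmb9 0.071, and within 859 to 933 Tap1 was -0.48, Tap2 -0.26, Tapbp -0.27 and Nlrc5 -0.29. Without lemborexant 7 and vehicle 7, H2-K1 was 0.12, H2-D1 0.016 and Psmb9 0.081. With voom, Tap1 was -0.047, Tap2 -0.033 and Tapbp -0.0098.

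Leaving out each library in turn, log2 changes ran from -0.29 to 0.089 for H2-K1, -0.36 to -0.037 for H2-D1, -0.48 to -0.017 for B2m, -0.074 to 0.24 for Tap1, -0.053 to 0.12 for Tap2, -0.030 to 0.17 for Tapbp, -0.60 to -0.075 for Psmb8, -0.34 to 0.13 for Psmb9 and 0.088 to 0.47 for Nlrc5, and log2 ratio differences from -0.13 to 0.41 for Psmb8 to Psmb5 and -0.20 to 0.28 for Psmb9 to Psmb6. The ratio tests without low-Cst7 libraries and with pairs averaged, added after the data were seen, gave 0.23 and 0.13. No paired analysis was possible because the labels give no replicate numbers. Nlrc5, with means of 4.04 CPM in lemborexant and 3.20 CPM in vehicle libraries, rests on the fewest reads of the 9 genes.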

Other observations

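Receptors that bind class I, and related receptors, were described by Cst7 as well. Not all of them, Lilrb4a and Lilra5 among these, are known to bind class I. Of 7 tested genes 4 were higher without overlap in the 15 libraries with Cst7 of at least 1 CPM. The share over all tested genes was 6.33%. The 4 were the CD8 chain genes Cd8a and Cd8b1 and the inhibitory receptor genes Pirb and Lilrb4a. Lilrb4a ran from 8.02 to 49.99 CPM in the 15 libraries, against 0.343 to 1.80 CPM in the 4 below. Pirb ran from 2.82 to 8.16 CPM in the 15 libraries, against 0.470 to 1.68 CPM in the 4. Cd8a was at 0.184 to 2.27 CPM in the 15 libraries, against at most 0.0490 CPM in the 4, where few reads lie behind each value. Of 12 tested T cell markers 1 rose and 0 fell with lemborexant, where 2.61% of all tested genes passed the threshold in either direction. The list's median log2 change was 0.06, against 0.03 over all tested genes. The T cell receptor chain gene Trbc2 read 1.98, 4.71 and 15.4 CPM in the lowest, median and highest lemborexant library, against 0.564, 1.44 and 4.10 CPM in vehicle libraries. Trbc2 rose with lemborexant (log2 change 1.95, SE 0.42, edgeR adjusted p = 0.0271), and no T cell marker was past the threshold with nearly alike pairs summed. The next smallest p-values of the list were those of Cd4 (log2 change 1.63, SE 0.54, edgeR adjusted p = 0.0820) and Cd8a (log2 change -0.62, SE 0.65, adjusted p = 0.563).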
